A study of Mus musculus with 7 samples.

Results

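The genes examined here were 10 members of the nitric oxide and cyclic GMP (cGMP) pathway, chosen by gene symbol from the 55487 genes in the count table: the synthases *Nos1* and *Nos3*, the soluble guanylate cyclase subunits *Gucy1a1*, *Gucy1a2* and *Gucy1b1*, the kinases *Prkg1* and *Prkg2*, and the phosphodiesterases *Pde2a*, *Pde5a* and *Pde9a*. All 10 symbols were found in GENCODE M21. *Gucy1a2* was placed at the centre of the list because the study named it for the comparison of genotypes made here, so its difference between genotypes is given as a description, with no p, and nothing is read from whether it was called. RNA was measured in cervical spinal cords of 8-week-old mice, with 1 library per mouse, from 4 *Neat1*-KO; hSOD1G93A mice (replicates 1, 2, 3 and 4) and 3 *Neat1*-WT; hSOD1G93A mice (replicates 2, 3 and 4). The long non-coding RNA of *Neat1* builds nuclear bodies called paraspeckles, and its loss was inherited and thus not limited to 1 cell type. Both groups carried the hSOD1G93A transgene, a human *SOD1* gene with a mutation of familial amyotrophic lateral sclerosis, and no library without the transgene was analysed here. The comparison therefore asks how loss of *Neat1* changed these genes in spinal cord that expresses mutant *SOD1*.

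Nitric oxide is made from arginine by the nitric oxide synthases and binds the haem of soluble guanylate cyclase, which then makes cGMP from GTP. The cyclase is a pair of 1 alpha and 1 beta subunit, and the alpha2 subunit carries a sequence that directs the enzyme to synapses. cGMP activates protein kinase G, opens cyclic nucleotide-gated channels and is broken down by phosphodiesterases, and in the nervous system the pathway is known as a retrograde signal at synapses and as a regulator of blood vessel tone.

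The total count per library lay between 19661878 and 26031517, and 18449 genes passed the filter on low counts. *Neat1* was between 4.04 and 5.52 CPM (counts scaled to a common library size) in the *Neat1*-KO libraries and between 80.5 and 118.4 CPM in the *Neat1*-WT libraries, and its log2 fold change was -4.25 (SE 0.15, edgeR quasi-likelihood test with Benjamini-Hochberg adjustment, adjusted p = 1.516e-08). *Xist* had at most 4 counts and the Y-linked *Ddx3y* at least 1047 counts in every library. By these counts all 7 libraries were from males, so the comparison covers no female mice. The 5 Hox genes read for spinal cord position were *Hoxa5*, *Hoxb5*, *Hoxc5*, *Hoxc6* and *Hoxb8*. They summed to 405-508 CPM in *Neat1*-KO and 393-455 CPM in *Neat1*-WT libraries, with *Hoxb8* the highest at 228.6 to 304.7 CPM. Peripheral nerve and ganglion markers summed to between 24.6 and 257.9 CPM and meningeal markers to between 67.3 and 199.2 CPM over the libraries. The sums overlapped between genotypes. The log2 fold change was above 0 for all 3 tested peripheral nerve and ganglion markers (median 0.32) and all 6 meningeal markers (median 0.29). Of these, 0 were called, against 0.0325% of all genes tested.

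The upstream sequences of the 3 cyclase subunit genes are shown because the report turns on *Gucy1a2* against its alternative alpha subunit and their shared beta subunit. They come from RefSeq (GRCm38.p6), read 5′ to 3′ on the strand of the gene, and capitals mark the GC box GGGCGG and the CCAAT box in either orientation. *Gucy1a2* is shown for chr9:3532099-3532348 (plus strand), *Gucy1a1* for chr3:82145790-82145900 (minus strand, ending 139 bases before the RefSeq start, where a GENCODE exon begins) and *Gucy1b1* for chr3:82074712-82074961 (minus strand).
Gucy1a2: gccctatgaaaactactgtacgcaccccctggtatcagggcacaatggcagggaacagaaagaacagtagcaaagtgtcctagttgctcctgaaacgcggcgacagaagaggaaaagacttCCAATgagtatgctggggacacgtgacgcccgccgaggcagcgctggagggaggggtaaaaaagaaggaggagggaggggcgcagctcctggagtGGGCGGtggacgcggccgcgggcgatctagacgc
Gucy1a1: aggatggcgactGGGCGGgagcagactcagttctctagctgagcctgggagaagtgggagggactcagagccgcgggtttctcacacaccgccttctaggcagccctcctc
Gucy1b1: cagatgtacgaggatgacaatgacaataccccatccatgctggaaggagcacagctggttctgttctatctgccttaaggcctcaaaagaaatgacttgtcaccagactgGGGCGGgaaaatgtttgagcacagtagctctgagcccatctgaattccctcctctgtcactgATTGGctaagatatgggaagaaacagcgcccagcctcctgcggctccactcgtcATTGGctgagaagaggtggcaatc

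The *Gucy1a2* stretch held 1 GC box, 1 CCAAT box and 17 CpG dinucleotides at 59.6% G+C. The *Gucy1a1* stretch of 111 bases held 1 GC box and 5 CpG dinucleotides at 63.1% G+C. The *Gucy1b1* stretch held 1 GC box, 2 CCAAT boxes and 5 CpG dinucleotides at 51.2% G+C. Letters were searched on both strands in windows of 300 bases, from 250 before to 50 after each RefSeq start. GGGCGG was present in 35.7% and CCAAT in 37.4% of all 32851 such windows, so both are common. Neither TATAAA, present in 13.6% of windows, nor the cAMP response element TGACGTCA, present in 1.79%, was found in a window of the 7 members that had one. Of these members, *Prkg1*, *Pde2a* and *Pde5a* also had GGGCGG in a window, whereas the window of *Nos1* held none of the 4 motifs. Matches are descriptions of letters and do not show that a factor binds there.

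Of the 10 members, 9 passed the filter on low counts, and *Pde2a* did not. A gene was called when its adjusted p was under 0.1 and its absolute log2 fold change over 0.58. Of the 8 tested members other than *Gucy1a2*, 0 were called in edgeR, where 0.0325% of all genes tested were called (6 genes, of which the 4 lower in *Neat1*-KO were 0.0217%). The DESeq2 Wald test also called 0 of these 8, where it called 0.146% of all genes. The log2 fold change was below 0 for 7 of these 8, against 48.2% of all genes tested. With *Gucy1a2*, which was chosen from this contrast, 8 of 9 were below 0. The median was -0.05 over the 9 members and 0.01 over all genes. Differences in the 8 were small, from -0.16 to 0.05. Leaving out 1 library changed the count of lower members among the 9 to between 5 and 9. The count of 5 was reached without *Neat1*-KO replicate 4 or without *Neat1*-WT replicate 4. An unadjusted edgeR p under 0.05 was found for 0 of the 8 members other than *Gucy1a2*, against 4.64% of all genes. In each of these 8 the libraries of both genotypes overlapped, whereas 5.47% of all genes did not overlap.

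**Figure D1:**
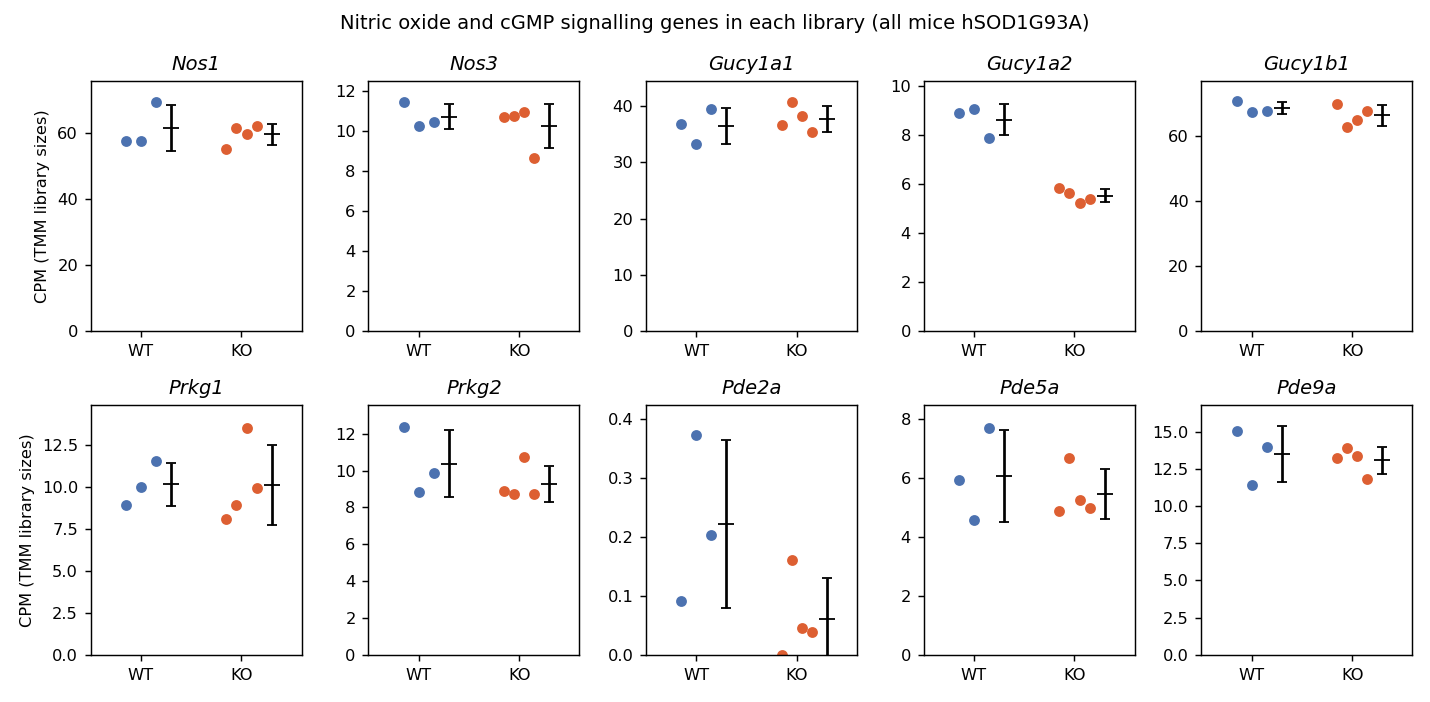
CPM of the 10 members, with 1 point per library (blue, 3 *Neat1*-WT; orange, 4 *Neat1*-KO; all hSOD1G93A) and black bars for the mean ± SD. Each panel has its own axis from 0. The genotypes are separate for *Gucy1a2* (5.24-5.86 against 7.90-9.06 CPM), which was chosen from this contrast, so nothing is read from it. They overlap in the other members tested, and 5.47% of all genes tested do not overlap. The counted reads of *Pde2a* are near 0 in every library, but its level cannot be read from them, since it shares exons with another gene.

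*Nos1* and *Nos3* encode the neuronal and the endothelial nitric oxide synthase. *Nos1* (chr5:117781032-117958840, plus strand) was at 55.3, 61.7, 59.8 and 62.3 CPM in the *Neat1*-KO libraries (replicates 1 to 4, in this order throughout) and at 57.6, 57.8 and 69.5 CPM in the *Neat1*-WT libraries (replicates 2 to 4). The *Neat1*-WT replicate 4 library was the highest of the 7, and the genotypes overlapped. This gave a log2 fold change of -0.04 (SE 0.09, 95% interval -0.23 to 0.15, edgeR adjusted p = 0.994). *Nos3* (chr5:24364810-24384474, plus strand) was at 10.7, 10.7, 10.95 and 8.62 CPM in *Neat1*-KO and at 11.4, 10.2 and 10.5 CPM in *Neat1*-WT libraries. The low library was *Neat1*-KO replicate 4, and the others lay close together in both genotypes. Its log2 fold change was -0.06 (SE 0.13, 95% interval -0.34 to 0.21, edgeR adjusted p = 0.994). Of the exon bases of *Nos3*, 32.3% overlap exons of *Gm15587* or *Atg9b* on the opposite strand, and 2.40% of those of *Nos1* overlap *Gm26995*. The library kit keeps strand, but the strand setting of the counting was not given in the sources used here, and without strand, reads of the overlapping genes cannot be told apart there. The log2 fold change was -0.04 (SE 0.19) for *Gm15587*, 0.20 (SE 0.15) for *Atg9b* and -0.16 (SE 0.35) for *Gm26995*. None of them was called.

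*Gucy1a2* encodes the alpha2 subunit of soluble guanylate cyclase and lies at chr9:3532778-3894736 on the plus strand (GRCm38). Its counts were 114, 140, 113 and 142 in the *Neat1*-KO libraries, against 197, 194 and 155 in those of *Neat1*-WT mice. Scaled to library size, this was 5.86, 5.64, 5.24 and 5.42 CPM against 8.92, 9.06 and 7.90 CPM. The highest *Neat1*-KO value was under the lowest *Neat1*-WT value, so the genotypes did not overlap. Means were 5.54 ± 0.27 CPM (SD, n = 4) without *Neat1* and 8.63 ± 0.63 CPM (SD, n = 3) with it, so the *Neat1*-KO level was 64.2% of the *Neat1*-WT level. On the log2 scale the difference was -0.64 with an SE of 0.14 and stayed between -0.70 and -0.60 when each library was left out in turn. The spread within genotypes had a pooled SD of 0.09 on the log2 scale, at percentile 2.6 among the 500 genes nearest in level. A gene chosen from this contrast in these libraries tends to have a small spread and a steady difference. Nothing is therefore read from this percentile or from the range with libraries left out. No exon of another gene overlaps *Gucy1a2*. The RefSeq model of the gene runs 11055 bases past the end of the GENCODE model, and reads from that stretch could be missing from the counts if the annotation used was like GENCODE M21. In a bulk sample, fewer cells that express a gene and less RNA per cell cannot be told apart.

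Markers of cell types were read in the same libraries. The 6 motor neuron markers *Chat*, *Slc18a3*, *Slc5a7*, *Mnx1*, *Isl1* and *Prph* were all below 0 in log2 fold change. Their summed level was 277.8-338.4 CPM in *Neat1*-KO and 359.7-428.1 CPM in *Neat1*-WT libraries, without overlap. None of these markers was called, against 0.0325% of all genes tested. None of the 6 was at 0 in any library. The part of motor neuron RNA in the *Gucy1a2* difference was not tested. The 10 general neuron markers summed to 5245-5744 CPM in *Neat1*-KO and 5114-5798 CPM in *Neat1*-WT libraries and overlapped. The 10 endothelial markers, at 235.8-261.4 against 232.9-277.5 CPM, and the 10 pericyte and smooth muscle markers, at 222.0-261.3 against 194.5-276.8 CPM, overlapped as well. The 6 oligodendrocyte markers were below 0 in log2 fold change, with overlapping sums and none called. Astrocyte, microglial and blood markers overlapped between genotypes.

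Genes around *Gucy1a2* were read as well. Within 1 Mb, 31 genes are annotated and 6 were tested, of which 0 were called, against 0.0325% of all genes tested. Their log2 fold changes ran from -0.15 (*Aasdhppt*) to 0.03 (*Cwf19l2*).

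*Gucy1a1* encodes the alpha1 subunit, the alternative partner of the beta subunit, and lies at chr3:82092427-82145789 on the minus strand. It was at 36.6, 40.8, 38.2 and 35.4 CPM in *Neat1*-KO and at 36.9, 33.2 and 39.5 CPM in *Neat1*-WT libraries. The genotypes overlapped throughout, and the difference on the log2 scale was 0.05 (SE 0.09, 95% interval -0.15 to 0.24, edgeR adjusted p = 0.992). *Gucy1b1* encodes the beta1 subunit, which both alpha subunits need for activity, and is next to *Gucy1a1* on chromosome 3 (chr3:82032006-82074689, minus strand). It was at 69.9, 62.7, 64.8 and 67.7 CPM in *Neat1*-KO and at 70.7, 67.1 and 67.7 CPM in *Neat1*-WT libraries. Its values were among the steadiest of the members, with a pooled SD of 0.06 on the log2 scale. This gave a log2 fold change of -0.05 (SE 0.07, 95% interval -0.21 to 0.11, edgeR adjusted p = 0.992).

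Per length of annotated exon, the alpha2 subunit was the minor alpha subunit in every library. *Gucy1a1* was at 5.34 ± 0.37 and *Gucy1a2* at 1.03 ± 0.26 CPM per kilobase of exon (SD, n = 7), where the latter averaged 0.83 without and 1.30 with *Neat1*. The ratio of *Gucy1a1* to *Gucy1a2* was 5.30 on average and between 3.50 and 6.95 in the 7 libraries (exact two-sided sign-flip permutation test, p = 0.0156, the smallest that 7 libraries allow). With the length of the longest transcript in place of all exons the ratio was 3.81. Reads past the GENCODE end of *Gucy1a2* could be missing, which would lower its level in the ratio and in the shares below. The ratio also pools both genotypes and so holds the low *Neat1*-KO values of *Gucy1a2*. The p covers neither point. The beta1 subunit, at 17.1 ± 0.70 CPM per kilobase, was 2.69-fold above the sum of both alpha subunits (2.38 to 2.93 over the libraries, exact sign-flip permutation test, p = 0.0156). With longest transcript lengths the beta1 subunit was 2.08-fold above that sum. As a share of the summed alpha level, *Gucy1a2* held 14.4, 12.7, 12.6 and 13.8% in *Neat1*-KO and 20.2, 22.2 and 17.3% in *Neat1*-WT libraries. The shares did not overlap, with a mean of 13.4 ± 0.88% (SD, n = 4) against 19.9 ± 2.47% (SD, n = 3). This share contains the *Gucy1a2* contrast and is given without a test.

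Apart from genotype, it was asked whether the subunits vary together between mice. Deviations of log2 CPM from the genotype mean were compared over the 7 mice for the 3 pairs of subunits, with an exact permutation test within genotype and adjustment over the 3 pairs. For *Gucy1a1* and *Gucy1b1*, Pearson's r was -0.42 (permutation p = 0.354, adjusted 0.486) and Spearman's rho -0.36 (p = 0.361, adjusted 0.375), and r was -0.81 without the 2 libraries farthest from the median of *Gucy1a1*. For *Gucy1a2* and *Gucy1b1*, r was 0.30 (permutation p = 0.486, adjusted 0.486) and rho 0.43 (p = 0.375, adjusted 0.375), and r was 0.12 without the 2 libraries farthest from the median of *Gucy1a2*. For *Gucy1a1* and *Gucy1a2*, r was -0.49 (permutation p = 0.368, adjusted 0.486) and rho -0.64 (p = 0.236, adjusted 0.375), and r was -0.55 without the 2 libraries farthest from the median of *Gucy1a1*. None of the 3 pairs passed. Among 16537 genes, those with deviations most like *Gucy1a2* over the 7 libraries were *Ubb* (r = 0.997), *Acadvl* (0.994), *Armcx2* (0.993), *Bap1* (0.992) and *Appbp2os* (0.992). With 7 points and the genotype means removed, high values of r arise easily, and 127 of the 16537 genes exceeded 0.95. The log2 fold changes between genotypes of these 5 genes were near 0, from -0.08 (*Armcx2*) to 0.02 (*Bap1*).

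*Prkg1* and *Prkg2* encode the cGMP-dependent protein kinases I and II. *Prkg1* (chr19:30564489-31765033, minus strand) was at 8.12, 8.95, 13.5 and 9.95 CPM in *Neat1*-KO and at 8.92, 9.99 and 11.5 CPM in *Neat1*-WT libraries. Among these, 13.5 CPM in *Neat1*-KO replicate 3 was the highest, and the genotypes overlapped. For *Prkg1*, the log2 fold change was -0.0004 (SE 0.17, 95% interval -0.38 to 0.37, edgeR adjusted p = 0.9997), and its within-genotype SD of 0.27 on the log2 scale was one of the widest among the members. *Prkg2* (chr5:98929773-99037351, minus strand) was at 8.89, 8.71, 10.8 and 8.73 CPM in *Neat1*-KO and at 12.4, 8.82 and 9.89 CPM in *Neat1*-WT libraries. *Neat1*-WT replicate 2 and *Neat1*-KO replicate 3 were the high libraries, and the genotypes overlapped. For *Prkg2*, the log2 fold change was -0.16 (SE 0.15, 95% interval -0.48 to 0.16, edgeR adjusted p = 0.992).

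*Pde5a* and *Pde9a* encode phosphodiesterases specific for cGMP, and *Pde2a* one that breaks down both cGMP and cAMP and is itself stimulated by cGMP. *Pde5a* (chr3:122728947-122859374, plus strand) was at 4.88, 6.69, 5.24 and 4.996 CPM in *Neat1*-KO and at 5.93, 4.58 and 7.70 CPM in *Neat1*-WT libraries. It had the widest spread of the members, and the highest and the lowest library were both *Neat1*-WT. For *Pde5a*, the log2 fold change was -0.15 (SE 0.20, 95% interval -0.58 to 0.28, edgeR adjusted p = 0.992). *Pde9a* (chr17:31386210-31476310, plus strand) was at 13.3, 13.9, 13.4 and 11.8 CPM in *Neat1*-KO and at 15.1, 11.4 and 13.97 CPM in *Neat1*-WT libraries. The genotypes overlapped, and the log2 fold change was -0.05 (SE 0.12, 95% interval -0.31 to 0.22, edgeR adjusted p = 0.996). *Pde2a* (chr7:101421691-101512827, plus strand) had 0, 4, 1 and 1 counts in *Neat1*-KO and 2, 8 and 4 counts in *Neat1*-WT libraries. Of its exon bases, 64.3% are shared with the annotated gene *Gm45837* on the same strand, which had 0 counts in every library. A read that lies in exons of both genes cannot be assigned to either without a rule, so the level of *Pde2a* cannot be read from these counts.

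Across the 8 tested members other than *Gucy1a2*, 7 had a log2 fold change below 0, and all lay between -0.16 and 0.05. No 95% interval among them reached 0.58 in either direction, with bounds from -0.58 (*Pde5a*, -0.5753 before rounding) to 0.37 (*Prkg1*). Exact two-sided permutation tests over the 35 ways to label 4 and 3 libraries gave p between 0.343 and 0.886, where the smallest possible is 0.0286.

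**Figure D2:**
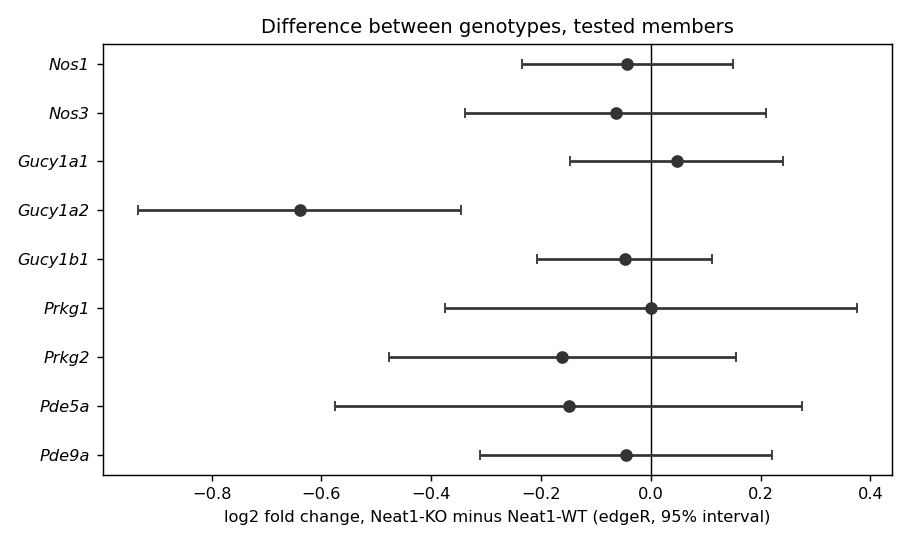
Log2 fold change of the 9 tested members, *Neat1*-KO minus *Neat1*-WT, from the edgeR fit. Points are estimates and bars 95% intervals, and the solid line marks 0. *Gucy1a2* lies at -0.64, and its bar is not read as a test, since the gene was chosen from this contrast. The intervals of the other 8 members include 0.

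The members spanned a wide range of levels per length. Over all 7 libraries, *Gucy1b1* was highest at 17.1 CPM per kilobase of exon, followed by *Nos1* (5.43), *Gucy1a1* (5.34), *Pde9a* (3.74), *Nos3* (2.53), *Prkg2* (1.81), *Gucy1a2* (1.03), *Prkg1* (0.93) and *Pde5a* (0.58). Of the 8 neighbouring pairs in this order, 6 had the same order in 7 of 7 libraries (exact sign-flip permutation p = 0.0156, adjusted 0.0208 over the 8 pairs). The order was set from the means of these same libraries, and the p values do not cover the choice of length. The 6 pairs include *Prkg2* above *Gucy1a2*, which holds the low *Neat1*-KO values for which *Gucy1a2* was chosen, so nothing is read from its p. The order of *Nos1* and *Gucy1a1* (higher in 3 of 7 libraries, p = 0.531 by the exact permutation test, adjusted 0.531) and of *Gucy1a2* and *Prkg1* (5 of 7, exact permutation p = 0.453, adjusted 0.518) did not pass. In *Neat1*-WT libraries *Gucy1a2* was above *Prkg1*, at 1.34, 1.36 and 1.19 against 0.82, 0.92 and 1.06. Within *Neat1*-KO the order was mixed, at 0.88, 0.85, 0.79 and 0.81 against 0.75, 0.82, 1.24 and 0.92. Means of *Gucy1a2* and *Prkg1* were 0.83 and 0.93 in *Neat1*-KO and 1.30 and 0.93 in *Neat1*-WT libraries. These values contain the *Gucy1a2* contrast and are given as a description. *Nos1* was 2.15-fold above *Nos3*, *Prkg2* 1.95-fold above *Prkg1* and *Pde9a* 6.51-fold above *Pde5a*, each in all 7 libraries. With the longest transcript in place of all exons, these ratios were 2.37, 1.36 and 8.53, in the same order. With longest transcript lengths, *Gucy1b1* remained the highest (20.9) and *Pde5a* the lowest (0.75), but *Nos1* (5.98) fell below *Gucy1a1* (7.90) and *Pde9a* (6.34), and *Gucy1a2* was at 1.71 against 1.87 for *Prkg2* in *Neat1*-KO and at 2.67 against 2.085 in *Neat1*-WT libraries.

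**Figure D3:**
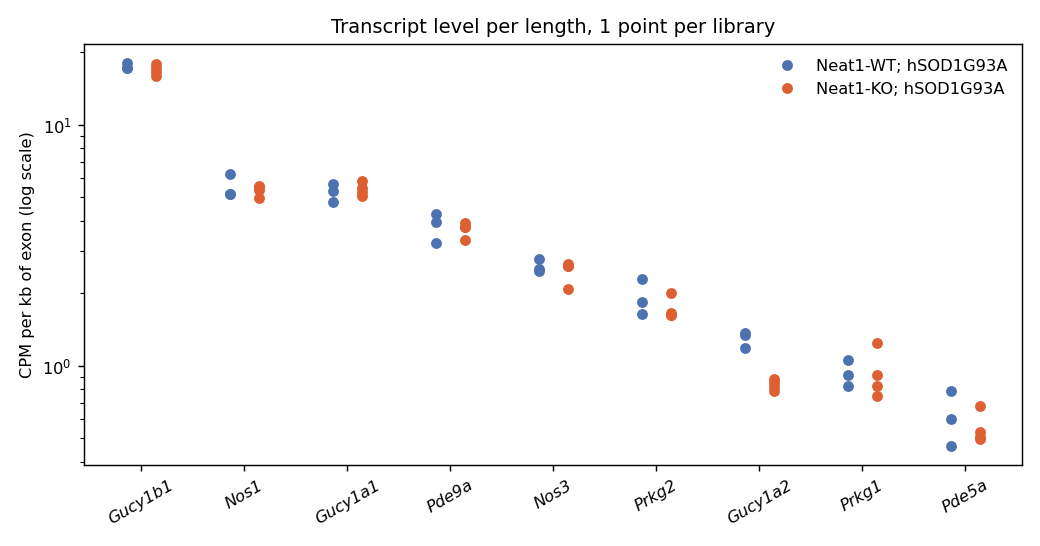
Level of the 9 tested members per length, as CPM per kilobase of annotated exon on a log axis, with 1 point per library (blue, 3 *Neat1*-WT; orange, 4 *Neat1*-KO; all hSOD1G93A). The members run from *Gucy1b1* at 17.1 to *Pde5a* at 0.58. The genotypes part for *Gucy1a2*, which was chosen from this contrast, so nothing is read from it.

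The other genes of the pathway were read from a list of 77 genes, of which 64 were tested and 0 were called in either direction. Only 0.0325% of all genes tested were called, so a count of 0 says little in a list this short. Of the listed genes, 2 had at most 3 counts in every library. The log2 fold change was below 0 for 30 of the 64 (46.9%) and above 0 for 34, against 48.2% below 0 over all genes, and the median was 0.01. An unadjusted p under 0.05 was found for 6 (9.38%) and non-overlapping libraries for 5 (7.81%), against 4.64% and 5.47% of all genes. *Nos2*, the inducible nitric oxide synthase, had the highest log2 fold change of the list. It was at 1.18, 1.25, 1.25 and 1.14 CPM in *Neat1*-KO and at 0.50, 0.42 and 0.71 CPM in *Neat1*-WT libraries. The genotypes did not overlap, and the log2 fold change was 1.15 (SE 0.32, edgeR adjusted p = 0.768), so that it did not pass. It had 11, 9 and 14 counts in the *Neat1*-WT libraries and passed the filter on low counts through the *Neat1*-KO libraries, where it is higher.

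By role, the peptide ligands and particulate cyclases had 8 tested genes, of which 7 had a log2 fold change above 0, with none called. They include *Npr2*, the receptor cyclase for C-type natriuretic peptide, with a log2 fold change of 0.12 (SE 0.09). Synthase partners, 12 tested, were split 6 and 6. Among the targets, channels and export genes, *Ppp1r12a*, the myosin phosphatase subunit that protein kinase G acts on, had a log2 fold change of -0.24 (SE 0.08, edgeR adjusted p = 0.983). *Rgs4* was at -0.22 (SE 0.10). Of the 13 tested genes of that group, 9 were below 0 and 4 above. In the tetrahydrobiopterin group 4 of 5 were below 0, among them *Gch1*, the first enzyme of the synthesis of this synthase cofactor, at -0.51 (SE 0.24, edgeR adjusted p = 0.992). For arginine and its methylated inhibitors, 6 of 8 were above 0, and *Ass1*, which makes the precursor of arginine, was at 0.24 (SE 0.12) and *Prmt1*, which methylates arginine, at 0.14 (SE 0.08). Of the other phosphodiesterases that act on cGMP, 5 of 10 were below 0. Among nitrosothiol removal and globin genes 4 of 7 were above 0, with *Cygb* at 0.22 (SE 0.09) and *Ngb* at 0.28 (SE 0.15), both globins that react with nitric oxide. *Hsp90aa1*, a partner of the synthases, was at -0.19 (SE 0.08). None of these genes passed the adjusted threshold.

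**Figure D4:**
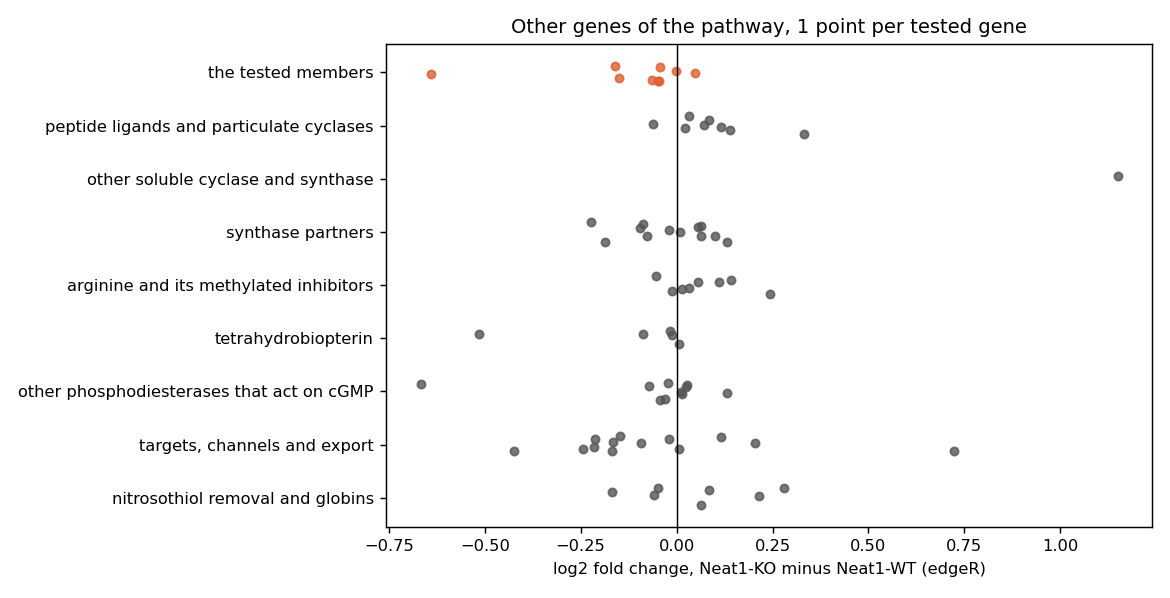
Log2 fold change, *Neat1*-KO minus *Neat1*-WT, of the 9 tested members (orange) and of the 64 tested genes of the pathway list by role (grey), 1 point per gene; height within a row has no meaning. Most points lie near 0, with *Nos2* at 1.15 as the highest and none called, against 0.0325% of all genes tested.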

How the data were processed

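RNA-seq of cervical spinal cord from 8-week-old mice was examined, with 4 *Neat1*-KO; hSOD1G93A and 3 *Neat1*-WT; hSOD1G93A libraries grouped by their labels. The authors deposited raw read counts per gene, made from poly(A) directional libraries. The submitters' processing notes list FastQC 0.11.7, Trimmomatic 0.38, HISAT2 2.1.0, SAMtools 1.9, featureCounts 1.6.3 and the build mm10. The annotation release and the strand setting of the counting were not given in the sources used here. All per-sample columns were used.

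GENCODE M21 (GRCm38) supplied names for 55141 of 55487 genes. The other 346 hold 0.00446% of the counts. Counts were filtered by filterByExpr, scaled by TMM (factors 0.991 to 1.01) and tested with the quasi-likelihood method of edgeR 4.0.16 in R 4.3.3, with Benjamini-Hochberg adjustment over 18449 genes. The common biological coefficient of variation came to 0.13. Calls needed an adjusted p under 0.1 together with a log2 fold change beyond 0.58 either way. CPM values use TMM library sizes, and levels per length divide them by the union of GENCODE exons. Single values were tested by exact permutation. Alternatives used DESeq2 1.42.0, limma 3.58.1, other filters and factors, other thresholds, the longest transcript, a replicate block and each library left out. Copies of members were sought with BLAST, and figures drawn with matplotlib 3.10.9.

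All 10 members were named, as were *Neat1* and, of a pathway list of 77 genes, the 5 genes with the smallest p in each direction, and the 5 genes whose deviations from the genotype means had the highest Pearson's r with those of *Gucy1a2*, among genes with a mean of at least 1 CPM. Some genes that these rules and lists include are not reported here. The members and the lists were chosen with earlier results of these data known. Between libraries of 1 genotype the chi-square per gene was 8.07 to 17.7, above sampling noise, so none was counted as a duplicate. Intervals cover the spread between the sequenced mice, 1 library each.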

Additional observations from a re-analysis of the deposited data

Results flagged for a closer look

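In the group of 4 *Neat1*-KO libraries, 3 of 21 genes had a highest or lowest value set apart from the rest by Dixon's ratio of gap to range, above its 95% critical value, where chance gives about 1 in 20 groups, or 1.05 here. *Nos3* was low in *Neat1*-KO replicate 4 (8.62 CPM, ratio 0.887). *Prkg2* was high in *Neat1*-KO replicate 3 (10.8 CPM, ratio 0.912). *Ass1* was high in *Neat1*-KO replicate 4 (20.7 CPM, ratio 0.885).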

How the results depend on the processing

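The fit was repeated with median-of-ratios factors, no filter on low counts, a filter of 0.5 CPM, the DESeq2 Wald test, limma-voom, a replicate block, other thresholds and each library left out. The number of members called was 0 in the edgeR fit described and 1 in the edgeR fit with no filter and in DESeq2, while the genes called overall were 6, 124 and 27. The 1 member was *Gucy1a2*, whose values in this contrast placed it on the list, so nothing is read from that call. The count of lower members among the 9 tested, with *Gucy1a2* included, was between 5 and 9 when libraries were left out. The log2 fold change of *Gucy1a2* was between -0.70 and -0.60. Of 104 repeated fits of the 8 other members, 11 changed sign and 0 were called, where the values were already near 0. With libraries left out, log2 fold changes ran from -0.0185 to 0.10 for *Gucy1a1*, from -0.0895 to 0.05 for *Nos1*, from -0.098 to 0.012 for *Nos3*, from -0.17 to 0.10 for *Prkg1*, from -0.32 to 0.053 for *Pde5a* and from -0.15 to 0.0433 for *Pde9a*. Deviations of same-numbered libraries correlated at -0.28, -0.16 and -0.05 for replicates 2, 3 and 4. With 3 values and none for libraries of unlike number beside them, whether replicate numbers pair the libraries cannot be settled. With the replicate number as a block, *Prkg1* was at 0.077, *Gucy1a2* at -0.66, 0 members and 39 genes in all were called. The pathway list had 0 genes called under every setting that was run, and 30 to 38 genes below 0 when libraries were left out. The repeated fits called from 0.0159% (without *Neat1*-WT replicate 3) to 0.4% (no filter) of all genes, so 0 says little in a list this short. The planned fit with *Xist* as a covariate was not run, since *Xist* had at most 4 counts. The low counts of *Pde2a* could not be read.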
